A study of Mus musculus with 21 samples.

Results

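The 10 genes described here, Dppa2, Dppa3, Dppa4, Dppa5a, Utf1, Trh, Tcl1, Trap1a, Tcf15 and Gbx2, are genes of mouse embryonic stem cells (mESC). They were listed by name after their FPKM in the sorted cells was seen, as ESC genes that persist in the day 5 LSKCD201- fraction, out of 27968 genes in that table and 19321 with values in the coculture table. All 10 were found in both tables. FPKM counts fragments relative to transcript length and to the mapped total of a library, so levels can be set side by side between genes. Because the sorted-cell levels chose the genes, those levels are described here with no test.

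RNA-seq covered 21 libraries in 7 groups of 3 replicates. The ESC-derived cells were all labelled 129/ola, while the study's methods name ESCs of both 129/ola and C57BL/6 origin: mESC sorted by SSEA-1, and cells from hematopoietic-like colonies of a 3D self-assembling peptide culture of embryoid bodies that were moved onto mitomycin-treated OP9 stromal cells (3D+OP9) or 0.1% gelatin (3D+0.1% gelatin). On day 5 total cells were collected from both cultures, and D5-LSKCD201+ and D5-LSKCD201- were sorted from 3D+OP9. The study does not say whether OP9 cells were removed from the total cells, so the 3D+OP9 libraries may hold their RNA. LSK stands for lineage-negative, Sca-1+ and c-kit+ cells, and CD201 is the receptor encoded by Procr. LSKCD201+ from bone marrow (BM-LSKCD201+, mice aged 6 to 8 weeks) and from fetal liver (FL-LSKCD201+, E12.5 embryos) came from C57BL/6 mice, so by the labels strain and cell source cannot be told apart between these and the ESC-derived groups. The mESC were kept on mouse embryonic fibroblasts with leukemia inhibitory factor. The study calls the sorted-cell libraries biological replicates and speaks of independent experiments for the cocultures. The labels do not tie any library to a culture or animal, so the errors and p-values measure only the spread between these samples, which may be technical.

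The genes have different roles in early development. Dppa2 and Dppa4 are paired SAP-domain chromatin proteins that keep the promoters of early embryonic genes open to activation, Dppa5a is a KH-domain RNA-binding protein, and Utf1 is a chromatin-bound factor of pluripotent cells. Dppa3 (Stella) is a maternal and germ cell protein that holds the methylation cofactor Uhrf1 away from chromatin, Tcl1 is a coactivator of the Akt kinases, and Trh encodes the precursor of thyrotropin-releasing hormone. Trap1a encodes the P1A tumor antigen of placenta and testis. Tcf15 and Gbx2 are transcription factors, of the bHLH and homeobox families, that are read out from the FGF and LIF signals of ESCs and later pattern the mesoderm and the mid-hindbrain.

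The genes lie on separate chromosomes apart from 2 pairs. Dppa4 (chr16:48283735-48294292) and Dppa2 (chr16:48310477-48319723) are neighbors on the plus strand, and in GENCODE M21 of GRCm38 9670 bases with no annotated gene lie between them. Dppa3 (chr6:122626410-122630272, plus strand) and Trh (chr6:92242061-92244650, minus strand) share chromosome 6 at a distance. Utf1 is at chr7:139943789-139945112, Tcl1 at chr12:105216750-105222793, Dppa5a at chr9:78367052-78368177, Tcf15 at chr2:152143561-152149097 and Gbx2 at chr1:89927956-89933290. All are annotated as protein-coding, and the deposited spans of Dppa2, Dppa4, Trap1a and Gbx2 differ from those of GENCODE M21.

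Reads of several of these genes could be shared with copies. Of the 10 genes, Dppa2 matched 6 other annotated genes, Dppa3 matched 2, Dppa4 matched 2 and Dppa5a matched 10 over at least 150 bases at 90% identity or more, most of them processed pseudogenes. For Dppa4 the nearest was Gm14058, a processed pseudogene 99.4% identical over 532 bases. Gbx2 overlaps D130058E05Rik on the opposite strand, with 919 bases in common. For Trap1a the deposited locus spans 117513 bases where GENCODE M21 gives 4487, and it takes in Platr21 and Gm15002. Levels of these genes are therefore uncertain where the counting could have split reads between copies or partners.

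The sequence before the start site is shown for 3 genes that the results turn on: Utf1, Trh and Tcl1. The windows of Utf1 and Tcl1 run into the annotated gene and were cut to 183 and 194 bases, while that of Trh lies clear of it. The windows are from RefSeq promoters on GRCm38.p6, which held 5 of the 10 genes, and are printed 5′ to 3′ on the strand of the gene, up to the first annotated base. Capitals mark the GC box GGGCGG, read on both strands (CCGCCC is its complement). Utf1 is shown at chr7:139943606-139943788, Trh at chr6:92244651-92244900 and Tcl1 at chr12:105222794-105222987.
Utf1: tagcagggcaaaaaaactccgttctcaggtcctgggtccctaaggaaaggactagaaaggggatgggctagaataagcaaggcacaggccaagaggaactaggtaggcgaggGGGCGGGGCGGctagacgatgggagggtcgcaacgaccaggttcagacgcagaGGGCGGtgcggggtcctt
Trh: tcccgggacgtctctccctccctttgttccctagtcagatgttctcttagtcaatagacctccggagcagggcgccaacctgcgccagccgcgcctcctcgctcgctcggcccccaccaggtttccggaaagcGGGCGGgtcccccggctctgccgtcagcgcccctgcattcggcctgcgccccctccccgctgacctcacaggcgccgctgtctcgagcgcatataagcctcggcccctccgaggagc
Tcl1: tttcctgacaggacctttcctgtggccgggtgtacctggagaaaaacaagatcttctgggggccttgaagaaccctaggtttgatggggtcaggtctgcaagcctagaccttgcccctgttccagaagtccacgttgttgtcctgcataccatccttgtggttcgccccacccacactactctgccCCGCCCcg

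In the 250 bases before the RefSeq start, GGGCGG was present in 4 of the 5 genes with a window and in 32.7% of 32851 promoters of the table. The octamer ATGCAAAT, the SOX-type motif ACAATG and TATAAA were found in 0 of the 5, against 1.6%, 10.7% and 12.4% of all promoters, which says only that these letters are not in the window. The Trh window held 25 CG dinucleotides, that of Gbx2 18, that of Utf1 14 and those of Tcl1 and Trap1a 7 each, beside a median of 6 over all promoters.

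The markers of the sorts were checked first. The D5-LSKCD201- libraries held 3.48 ± 0.411 FPKM of Procr (SD, n = 3) and those of D5-LSKCD201+ 59.7 ± 2.03. Kit was at 28.8 ± 4.30 and 44.5 ± 2.94 FPKM. Ptprc, which encodes the blood marker CD45, stayed under 1 FPKM in every D5-LSKCD201- and D5-LSKCD201+ library and was at 43.5 ± 7.54 in FL-LSKCD201+ and 66.8 ± 4.21 in BM-LSKCD201+. The summed level of 7 pluripotency markers (Pou5f1, Sox2, Nanog, Zfp42, Esrrb, Fgf4 and Tdgf1) ran from 1810 to 1877 FPKM in mESC, from 925 to 944 in D5-LSKCD201- and from 7.84 to 8.51 in D5-LSKCD201+, and all 7 were at or above 1 FPKM on average in D5-LSKCD201-. Pluripotency RNA thus stood beside that of Kit and Ly6a in D5-LSKCD201-. In bulk RNA, fewer cells of a type and less RNA per cell cannot be told apart. The second D5-LSKCD201- library stood apart from the first and the third (a Euclidean distance of 50.1 and 51.5 on the log2 scale, against 19.4 between those), and so did the third 3D+OP9 library (47.7 and 48.9 against 19.2) and the first FL-LSKCD201+ library (54.6 and 52.2 against 17.3). FPKM summed to between 508622 and 620332 per sorted-cell library and to between 483263 and 508307 per coculture library. The number of reads is not given, so the depth is unknown and SDs of 3 libraries are the only errors.

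Dppa2 and Dppa4, the neighboring pair, were highest in mESC and were at different shares of that level in D5-LSKCD201-. Dppa2 was at 137, 136 and 141 FPKM in the mESC libraries, at 40.6, 41.1 and 37.8 in D5-LSKCD201- and at 0.238, 0.728 and 0.601 in D5-LSKCD201+. Dppa4 was at 207, 207 and 192 FPKM in mESC, at 88.9, 101 and 88.7 in D5-LSKCD201- and at 11.6, 12.2 and 11.1 in D5-LSKCD201+. D5-LSKCD201- thus held 28.8% ± 1.29 (SD, n = 3) of the mESC mean for Dppa2 and 46.0% ± 3.41 for Dppa4, with no overlap between the 3 ESC-derived groups for either gene. In D5-LSKCD201+ Dppa4 was at 5.75% of its mESC mean and Dppa2 at 0.378%. In FL-LSKCD201+ and BM-LSKCD201+ both were at 0.338 FPKM or less in every library.

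Dppa5a had the highest FPKM of the 10 genes in mESC and in D5-LSKCD201-. It was at 5022, 4848 and 4534 FPKM in mESC and at 2843, 2579 and 2991 in D5-LSKCD201-, which is 58.4% ± 4.34 of the mESC mean. In D5-LSKCD201+ it ranged from 15.02 to 22.15 FPKM over the 3 libraries, 0.398% of mESC. FL-LSKCD201+ libraries held 3.82 to 7.39 FPKM, and BM-LSKCD201+ libraries 0, 5.37 and 8.04, so fetal liver and marrow overlapped. Low levels of Dppa5a have to be read beside its 10 copies.

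Utf1 had a profile like that of Dppa5a. It was at 557, 550 and 536 FPKM in mESC, at 315, 269 and 338 in D5-LSKCD201- and at 1.77, 2.41 and 1.80 in D5-LSKCD201+. The D5-LSKCD201- mean was 56.1% ± 6.44 of that in mESC, and the D5-LSKCD201+ mean 0.364%. As percent of each gene's highest group mean, Utf1 and Dppa5a differed by 0.470 percentage points on average over the 5 groups, the least of any pair among the 10.

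Dppa3 and Trh were the 2 of the 10 genes with a higher level in D5-LSKCD201- than in mESC. Its mESC libraries were at 8.35, 6.64 and 6.89 FPKM and its D5-LSKCD201- libraries at 69.5, 67.6 and 72.4, 9.58 times the mESC mean. D5-LSKCD201+ libraries were at 0.278, 0.351 and 0.259 FPKM. The mESC level of Dppa3 was the lowest of the 10 genes, so the label of a persistent ESC gene does not describe it. Trh was at 274, 288 and 273 FPKM in mESC and at 663, 565 and 695 in D5-LSKCD201-, 2.30 times the mESC mean. In D5-LSKCD201+ Trh was at 5.59, 5.64 and 4.34 FPKM, and in FL-LSKCD201+ at 1.62, 0.543 and 0.583, highest in the library that stood apart. For both genes all 3 D5-LSKCD201- libraries lay above all 3 mESC libraries.

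Tcl1 and Trap1a were the genes closest to their mESC level. Tcl1 was at 59.8, 56.1 and 57.0 FPKM in mESC and at 44.2, 49.0 and 49.5 in D5-LSKCD201-, 82.5% ± 5.09 of the mESC mean. Trap1a was at 108, 101 and 96.5 FPKM in mESC and at 70.9, 81.0 and 74.0 in D5-LSKCD201-, 73.9% ± 5.10 of the mESC mean. In D5-LSKCD201+ the pair parted: Tcl1 was at 0.146, 0.478 and 0.110 FPKM, overlapping marrow (0 to 0.287) with 1 library above it, and Trap1a at 3.66, 3.58 and 3.85, above every fetal liver and marrow library (0 to 0.229).

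The label of persistence did not hold for Tcf15 and Gbx2. Tcf15 was at 322, 323 and 316 FPKM in mESC and at 30.7, 29.6 and 37.2 in D5-LSKCD201-, 10.1% ± 1.29 of the mESC mean. Gbx2 was at 80.5, 79.1 and 82.9 FPKM in mESC and at 4.40, 2.95 and 3.81 in D5-LSKCD201-, 4.6% ± 0.900 of the mESC mean. Their levels in the LSKCD201+ cells of mice overlapped those of D5-LSKCD201- in marrow. Tcf15 was at 25.6, 31.9 and 32.1 FPKM in BM-LSKCD201+, which overlapped D5-LSKCD201- and D5-LSKCD201+ (25.8, 27.8 and 28.8), and at 5.16, 7.49 and 7.66 in FL-LSKCD201+, below all of these with or without the first library. Gbx2 was at 2.51, 4.32 and 4.48 FPKM in BM-LSKCD201+ and at 3.14, 2.88 and 2.39 in FL-LSKCD201+, overlapping D5-LSKCD201-, while D5-LSKCD201+ was lowest at 0.448, 0.498 and 0.392.

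**Figure D1:**
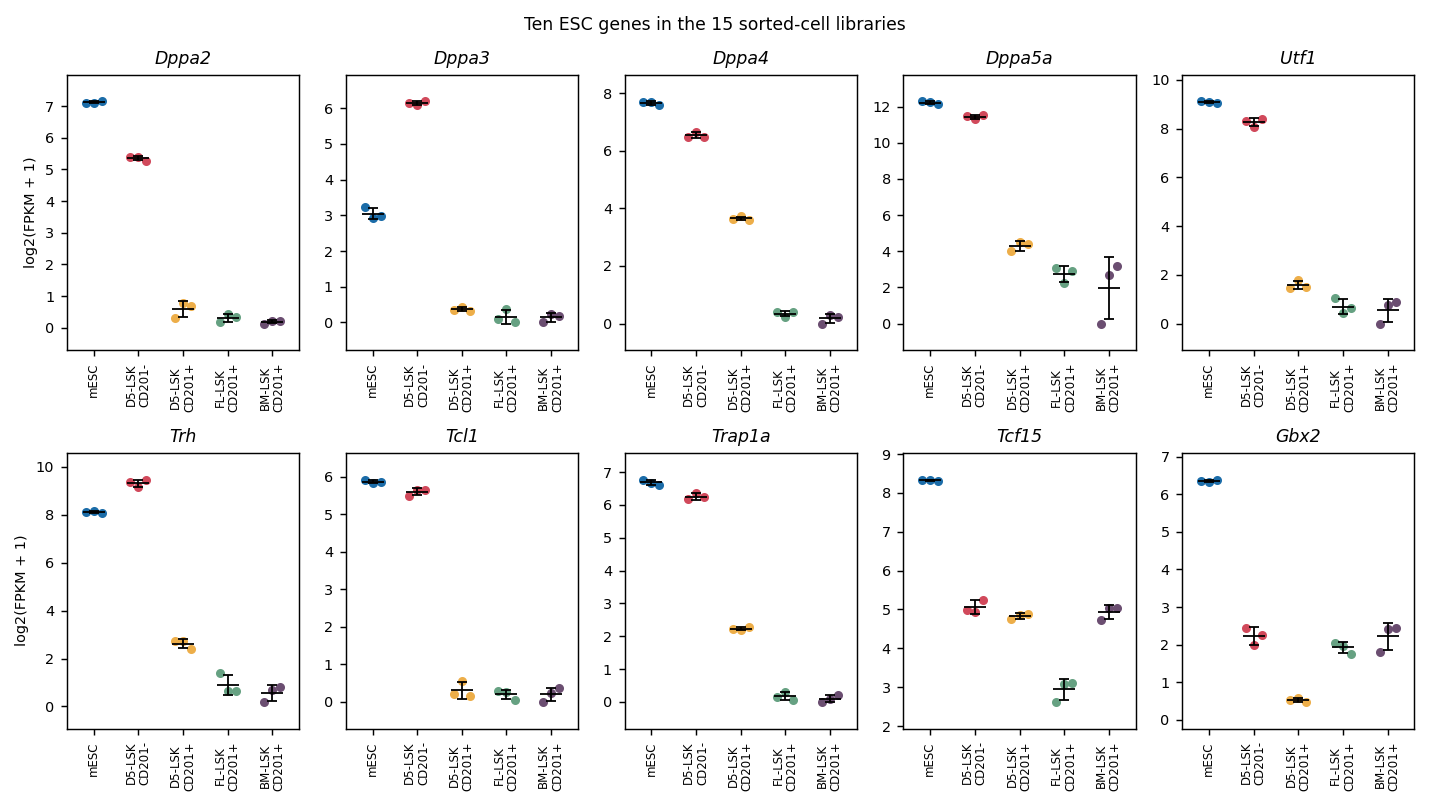
Each panel plots log2(FPKM + 1) of 1 of the 10 genes (vertical axis) in mESC, D5-LSKCD201-, D5-LSKCD201+, FL-LSKCD201+ and BM-LSKCD201+, with a point per library and black bars for the mean and SD of 3 libraries. In 8 panels mESC and D5-LSKCD201- stand above all 3 other groups, and D5-LSKCD201- is the higher of them for Dppa3 and Trh, whereas D5-LSKCD201- overlaps marrow for Tcf15 and Gbx2.

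Across the 5 groups, the means of 7 genes were ordered with mESC and D5-LSKCD201- at the top, then D5-LSKCD201+, fetal liver and marrow. Tcl1 differed from these only in that its marrow mean was above that of fetal liver, and Tcf15 and Gbx2 had orders of their own. Fetal liver and marrow overlapped as neighbors at the bottom of the order for the 8 genes other than Tcf15 and Gbx2. D5-LSKCD201+ overlapped fetal liver for Dppa2, Dppa3 and Tcl1, and marrow for Tcl1 and Tcf15. Mean levels under 1 FPKM were found for 7 genes in FL-LSKCD201+, for 7 in BM-LSKCD201+ and for 4 in D5-LSKCD201+. In the first BM-LSKCD201+ library 6 of the 10 genes were listed at 0, against 0 in the second and the third, and that library stood apart from those (distances of 40.4 and 40.8 against 16.65).

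The median share kept in D5-LSKCD201- was set beside that of the pluripotency network. Among genes with at least 5 FPKM in mESC, the median level in D5-LSKCD201- was 57.3% of mESC over the 10 genes and 55.8% over 28 genes of the pluripotency network, beside 96.5% over all 7683 such genes. The 10 ran from 4.6% (Gbx2) to 958% (Dppa3), and the network from 24.1% (Sox2) to 372% (Spp1). In D5-LSKCD201+ the medians were 1.21% and 0.860%, beside 81.0% over all genes. In the second D5-LSKCD201- library, the one that stood apart, levels were 0.719 to 1.13 times the mean of the other two for the 10 genes. The same ratio ran from 0.245 to 1.64 for 30 genes of the network, with Klf2, Lin28a, Klf5 and Sox2 lowest. Over all genes at 1 FPKM or more, 90% of these ratios fell between 0.418 and 1.31.

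**Figure D2:**
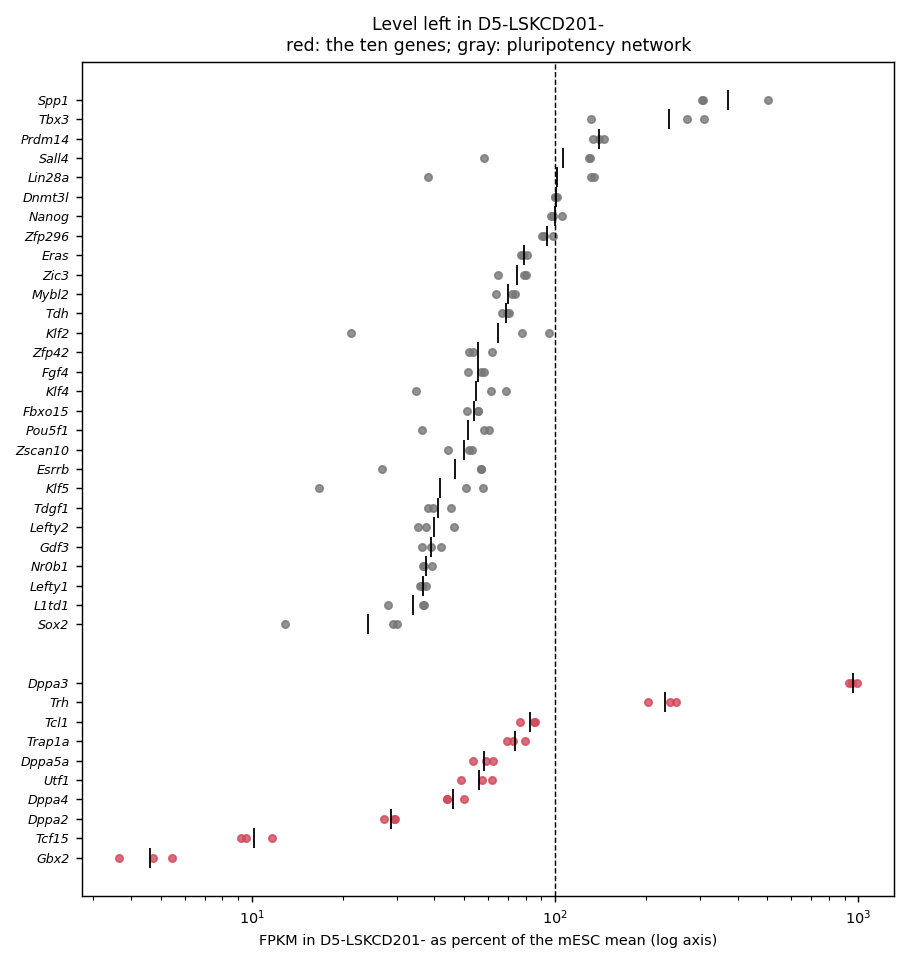
The horizontal log axis plots FPKM in each of the 3 D5-LSKCD201- libraries as percent of the mESC mean of the same gene, in red for the 10 genes and in gray for 28 genes of the pluripotency network, with a bar at the mean and a dashed line at 100%. Gbx2 and Tcf15 lie at 4.6% and 10.1%, Dppa3 and Trh at 958% and 230%, and the 6 other red genes between 28.8% and 82.5%.

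Genes with the most similar profile were found by the mean absolute difference of the 5 group means, each as percent of the gene's highest group mean, over 10952 genes with a highest group mean of at least 5 FPKM. The nearest profiles to Utf1 were those of Zfp42 (Rex1, 0.0768 percentage points) and Fgf4 (0.0951), which belong to the pluripotency network. The D5-LSKCD201- share of mESC had an SD of 6.44 percentage points for Utf1, 5.16 for Zfp42 and 3.45 for Fgf4. Such small differences therefore show profiles that are alike, but not which gene is truly the nearest. Nearest to Dppa2 were Palm3 (0.207) and Plk5 (0.471), and nearest to Dppa5a were Enox1 (0.162) and Gm21411 (0.358). Trh was nearest to Sh3gl2 (0.270) and Syndig1 (0.383), and Dppa3 to Cyp2s1 (0.410) and Coch (0.534). For Trap1a they were Cdh3 (0.373) and 2410141K09Rik (0.635), and for Tcl1 Hspb1 (0.586) and Ooep (0.614), a maternal factor of the oocyte. Dppa4 was nearest to Lncenc1 (0.966) and then to Gm14058 (1.15), its own pseudogene copy. Tcf15 and Gbx2 had no profile so near: Nqo1 and Cbr3 came within 2.29 and 2.50 percentage points of Tcf15, and Actn3 and Usp44 within 1.63 and 1.71 of Gbx2.

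The coculture table holds other libraries, in which the genes can be tested. 3D+OP9 was compared with 3D+0.1% gelatin by limma on log2(FPKM + 1), with Benjamini-Hochberg adjusted p over 12958 genes at a mean of 0.5 FPKM or more, and a gene was called at an adjusted p under 0.05 and a log2 fold change of at least 1 in size. Fold changes on this scale understate those of low genes. All 10 genes passed the filter, Tcl1 and Dppa3 only through 3D+OP9, with gelatin means of 0.297 and 0.433 FPKM. Of the 10 genes, 1 was called higher in 3D+OP9 (Tcl1) and 0 lower, where 2.11% of all genes were called higher and 0.509% lower. Limma gave 3 of the 10 an unadjusted p under 0.05. The median log2 fold change was 0.66 over the 10 genes and 0.01 over all genes. Without the third 3D+OP9 library the median over the 10 genes was 0.13.

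Tcl1 was at 3.58, 3.04 and 6.96 FPKM in 3D+OP9 and at 0.26, 0.04 and 0.59 in 3D+0.1% gelatin. All 3 libraries on OP9 lay above all 3 on gelatin. The log2 fold change was 2.05 ± 0.28 (SE, n = 3 per group, limma adjusted p = 0.00681). Tcl1 was called higher under all 14 alternatives, where limma adjusted p ran from 0.00189 to 0.0418. Its gelatin mean of 0.297 FPKM was under the filter level, so Tcl1 entered the test only through 3D+OP9. A gene so placed could hardly be called lower, which limits what the call shows. Without the third 3D+OP9 library the log2 fold change was 1.75. The pseudocount sets the size, which was 3.73 with 0.1 FPKM in place of 1.

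Dppa3 and Dppa5a were also higher without overlap, as were 16.5% of all genes tested, but did not pass the test. Dppa3 was at 1.48, 0.90 and 6.86 FPKM in 3D+OP9 and at 0.59, 0.13 and 0.58 on gelatin, a log2 difference of 1.24 ± 0.49 (limma adjusted p = 0.185). Dppa5a was at 111, 112 and 350 FPKM against 74.9, 71.0 and 102, a log2 difference of 0.99 ± 0.42 (limma adjusted p = 0.216). In both, the third 3D+OP9 library lay far above the others, by 4.63 and 3.12 times the higher of the other two. Without it the log2 difference was 0.62 for Dppa3 and 0.45 for Dppa5a.

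The call of Utf1 depended on that library. It was at 39.4, 41.6 and 299 FPKM in 3D+OP9 and at 82.3, 102 and 150 on gelatin, so 2 of the OP9 libraries lay below all gelatin libraries and 1 above. With all libraries the log2 difference was -0.44 ± 0.72 (limma adjusted p = 0.772). Without the third 3D+OP9 library it was -1.39 ± 0.22 and Utf1 was called lower (limma adjusted p = 0.0076), the only one of 14 alternatives to call it, where adjusted p ran from 0.0076 to 0.993.

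For 5 further genes the groups overlapped and the test was not passed. Dppa4 was at 10.5, 12.4 and 40.2 FPKM in 3D+OP9 against 6.99, 12.1 and 12.4 on gelatin (log2 difference 0.73 ± 0.47, limma adjusted p = 0.406), and gave 0.15 without the third 3D+OP9 library. Dppa2, at 4.24, 5.0 and 14.8 against 3.42, 7.42 and 7.01 FPKM, gave 0.25 ± 0.44, and -0.25 without it. Trap1a was at 6.81, 8.21 and 25.2 FPKM against 5.16, 6.21 and 10.04 (0.65 ± 0.45, and 0.11 without that library). In all 3 the third 3D+OP9 library was the highest of the 6. Tcf15 was at 3.41, 3.36 and 9.47 FPKM against 3.38, 4.18 and 3.29, a log2 difference of 0.35 ± 0.33, and -0.07 without the third 3D+OP9 library. Gbx2 alone was lowest in that library, at 1.49 after 7.41 and 6.59, against 4.51, 2.59 and 0.97 FPKM on gelatin (0.68 ± 0.53, and 1.24 without that library).

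Trh, the hormone precursor, did not pass the test either. It was at 254, 231 and 284 FPKM in 3D+OP9 and at 263, 226 and 187 on gelatin, a log2 difference of 0.20 ± 0.13 (limma adjusted p = 0.438). The groups overlapped, and the third 3D+OP9 library was 1.12 times the next highest of the OP9 libraries. Without it the difference was 0.12.

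The third 3D+OP9 library was the highest of the 3 OP9 libraries for 9 of the 10 genes, and for 47.9% of all genes tested. The gap to the mean of the other two was 1.56 on the log2 scale at the median of the 10 genes and 0.04 over all genes. In the same library Sox2 was at 92.0 FPKM after 38.6 and 41.2, and Pou5f1 at 503 after 334 and 327. The 7 pluripotency markers summed to between 679 and 1027 FPKM in 3D+OP9 and between 1070 and 1200 on gelatin, 10 stromal markers to between 74.3 and 85.5 against 44.8 and 55.8, 8 endothelial markers to between 88.1 and 102 against 14.8 and 23.5, and 8 blood markers to between 31.0 and 36.8 against 3.76 and 4.80. In 3D+OP9, 2 of the 7 pluripotency markers (Esrrb and Zfp42), 3 of 9 stromal, 7 of 8 endothelial and 6 of 6 blood markers tested were called higher. Among them, Gata1, Spi1, Itga2b, Laptm5, Emcn and Postn were at means of 0.457 FPKM or less on gelatin, under the filter level of 0.5. They passed the filter only through 3D+OP9. The part of all these markers in the differences of the 10 genes was not tested.

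**Figure D3:**
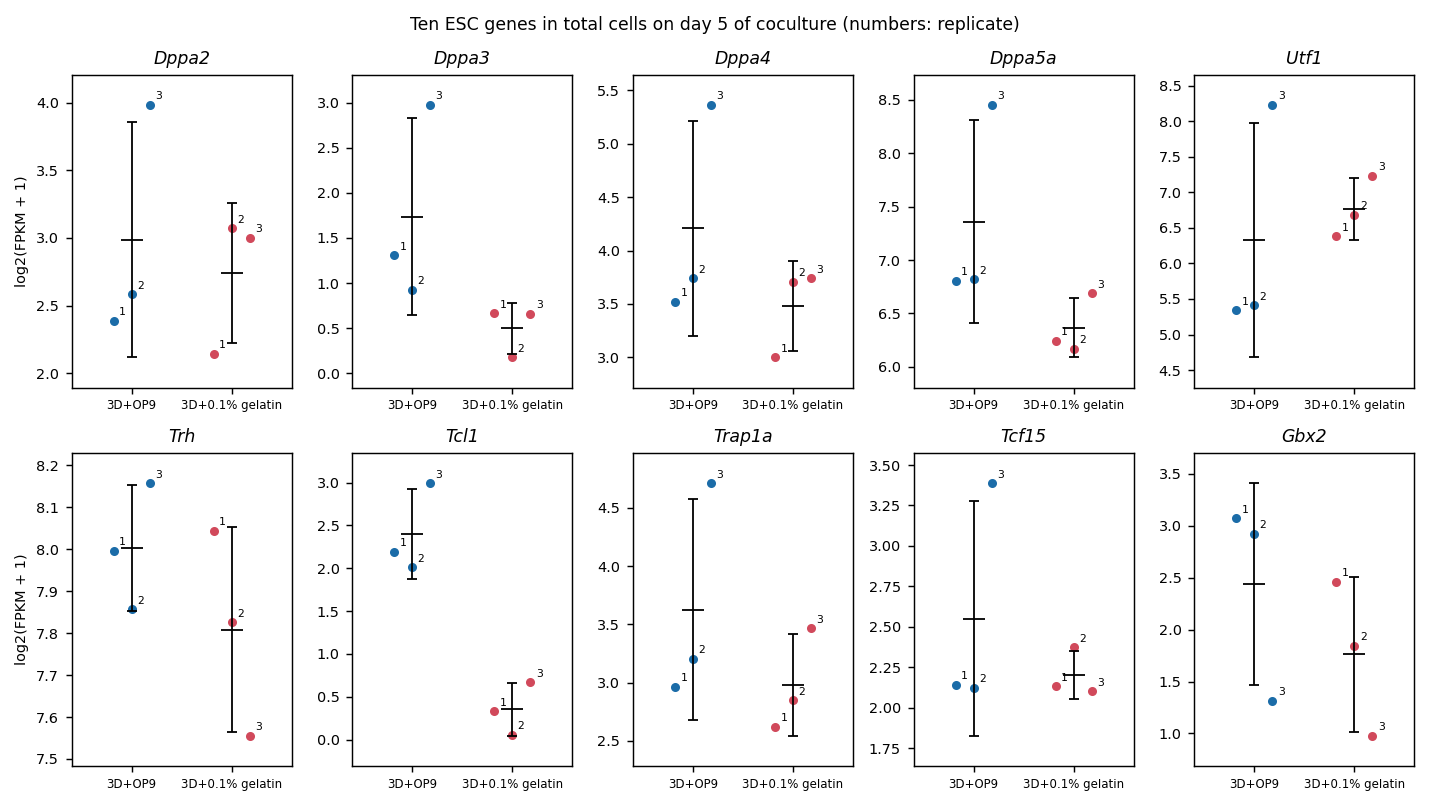
Each panel plots log2(FPKM + 1) of 1 of the 10 genes in total cells of 3D+OP9 (blue) and 3D+0.1% gelatin (red), with points numbered by replicate and black bars for the mean and SD of 3 libraries. Tcl1 shows a gap between the groups, and replicate 3 of 3D+OP9 is the highest OP9 point in every panel but that of Gbx2.

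Genes that work with the 10 were read from lists, tested in 4 comparisons by limma with the same filter and thresholds. Counts with an unadjusted p under 0.05 are given without the share of all genes, so they are no result about a list. Zscan4a, for example, had an unadjusted limma p of 0.048 and an adjusted p of 0.0807 between D5-LSKCD201- and mESC. Between D5-LSKCD201- and mESC, 10.9% of all genes tested were called higher and 3.48% lower. Of 30 genes of the pluripotency network, 2 rose in D5-LSKCD201- (Spp1 by 1.85 ± 0.18 and Tbx3 by 1.06 ± 0.29 on the log2 scale, adjusted p = 0.000146 and 0.017), 9 fell, and 19 did not pass. Spp1 was listed with the network but did not follow it, with means of 342 FPKM in mESC, 1273 in D5-LSKCD201- and 1011 in D5-LSKCD201+. Tbx3 was not called with quantile normalization (0.94), or without replicate 1 or 3 of either group (0.83 to 1.04). Sox2, with a log2 fold change of -2.06 ± 0.30 (adjusted p = 0.00101), L1td1 with -1.53 and Lefty1 with -1.45 fell most. Nanog gave 0.00 ± 0.06. The median of the network was -0.82, beside 0.05 over all genes.

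The germline list had calls in 1 direction in that comparison. Of 33 germline genes 24 were tested, 9 rose in D5-LSKCD201-, 0 fell and 15 were not called (limma, 19 with an unadjusted p under 0.05 in either direction), with a median of 0.57. Among the 9, Tuba3b was at a mean of 0.2165 FPKM in mESC and 3.24 in D5-LSKCD201-. It entered the test only through D5-LSKCD201- and could hardly be called lower. Rhox6, an X-linked homeobox gene of germ cells, had a log2 fold change of 2.54 ± 0.14 (adjusted p = 9.0e-06), Tuba3a, a testis tubulin, 2.36 ± 0.07 (adjusted p = 6.6e-07), and Xlr3b 2.0 ± 0.13 (adjusted p = 2.0e-05). Xlr3b was at 807% of its mESC mean in D5-LSKCD201-, but at 1459% in FL-LSKCD201+ and 3640% in BM-LSKCD201+, so its rise is not particular to D5-LSKCD201-. Rhox6 and Tuba3a were at 0.407% or less of mESC in those 2 groups. Dazl, an RNA-binding protein of germ cells, rose by 1.73 ± 0.10 (adjusted p = 1.3e-05). Tex19.1 gave -0.74 ± 0.43 and Ddx4 -0.83 ± 0.10, neither called. Of 7 primordial germ cell markers all were at or above 1 FPKM on average in D5-LSKCD201- and in mESC, where they summed to between 77.6 and 82.7 and between 64.4 and 66.6 FPKM. Beside these, 6 primed epiblast markers summed to between 301 and 312 FPKM in D5-LSKCD201- and between 82.8 and 84.6 in mESC. Fgf5 was at 0.457 FPKM ± 0.202 in mESC and at 80.5 ± 6.16 in D5-LSKCD201-, Otx2 rose by 2.91 ± 0.08 on the log2 scale, and Pou3f1 had a log2 fold change of -1.64 ± 0.20.

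Dppa2 and Dppa4 are known as upstream factors of the 2-cell genes, and were read beside them. Of 10 2-cell genes tested, 3 fell in D5-LSKCD201- against mESC, namely Zscan4d (-1.31 ± 0.33, adjusted p = 0.0116), Zscan4f (-1.28 ± 0.27, adjusted p = 0.0061) and Zscan4e (-1.01 ± 0.20, adjusted p = 0.00392), and 0 rose (limma, 7 with an unadjusted p under 0.05). Zscan4 genes are near-identical copies, so reads may be split between them. Zscan4d was at 10.2, 4.29 and 12.2 FPKM in mESC, at 2.41, 3.36 and 2.43 in D5-LSKCD201- and at or below 0.0152 in D5-LSKCD201+. The 3 mESC libraries of Zscan4d lay above those of D5-LSKCD201-. Zscan4e lost its call when any 1 of 4 libraries was left out, at -0.98 to -0.88.

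Partners of Dppa3 in DNA methylation were measured next to it. Dnmt3a, a de novo methyltransferase, was at 138, 124 and 132 FPKM in mESC and at 30.4, 34.8 and 30.2 in D5-LSKCD201- (log2 fold change -2.02 ± 0.08, adjusted p = 1.6e-06). Tet1, a methylcytosine oxidase, was at 16.5 FPKM ± 1.59 and 5.54 ± 0.991 (-1.43 ± 0.13, adjusted p = 0.000114). Those were the 2 of 7 partners that fell, and 0 rose (limma, 6 with an unadjusted p under 0.05). Uhrf1, the direct partner of Dppa3, gave -0.01 ± 0.11, and Dnmt3b gave 0.80 ± 0.05, under the fold threshold.

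Of the genes that process or bind Trh, 7 of 11 were tested, and 2 rose in D5-LSKCD201- against mESC while 0 fell (limma, 6 with an unadjusted p under 0.05). They were Cpe, the carboxypeptidase of prohormone processing, at 5.10 FPKM ± 0.223 in mESC and 29.6 ± 3.90 in D5-LSKCD201- (2.32 ± 0.11, adjusted p = 3.3e-06), and Pam, the amidating enzyme, at 2.21 ± 0.153 and 15.1 ± 2.48 (2.31 ± 0.13, adjusted p = 1.0e-05). The receptors Trhr and Trhr2 were listed at 0 in mESC and at 0 to 0.160 FPKM in D5-LSKCD201-. Of the relatives of Tcl1 and the Akt kinases, 4 of 9 were tested and 0 were called (limma, 4 with an unadjusted p under 0.05). Akt1 gave -0.55 ± 0.16 and Akt2 0.43 ± 0.09, both under the fold threshold.

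The lists were also tested in D5-LSKCD201+. Against mESC, 19.5% of all genes were called higher and 18.1% lower in D5-LSKCD201+. Of 6 genes of the Trh list tested 5 rose and 0 fell (limma, 5 with an unadjusted p under 0.05), led by Cpe (3.06 ± 0.06, adjusted p = 1.6e-10), Pam (2.64 ± 0.08, adjusted p = 3.8e-09) and Qpct (2.44 ± 0.10, adjusted p = 3.1e-08), while Trh itself was at 1.87% of its mESC level. The pluripotency network fell in 27 of 30 genes, with Tdgf1 (-7.58), Zfp42 (-7.33) and Lefty1 (-7.12) lowest, and Spp1 rose (1.55 ± 0.07, adjusted p = 4.3e-08). Of 20 germline genes tested 16 fell, led by Tex19.1 (-4.85), Rpl10l (-4.63) and Sycp3 (-4.50). All 9 2-cell genes tested fell, led by Zscan4f (-4.32), Zscan4c (-3.32) and Zscan4d (-3.19). Those 3 Zscan4 genes were at means of 0.0273, 0.00511 and 0.00505 FPKM in D5-LSKCD201+ and passed the filter through mESC alone. Genes low in both groups were filtered out, so a fall was nearly the only call open, and these counts are no test of the 2 lists. Tet1 (-2.45), Dnmt3b (-2.11) and Dnmt3a (-2.05) fell, and Tet3 rose (1.73 ± 0.11, adjusted p = 4.3e-07).

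Between D5-LSKCD201+ and D5-LSKCD201-, 10.8% of all genes were called higher and 13.9% lower in the former. The pluripotency network fell in 28 of 30 genes (Zfp42 -6.48, Tdh -6.44 and Tdgf1 -6.30 on the log2 scale). The germline list fell in 23 of 24 (Tuba3a -5.39, Rpl10l -5.06, Hormad1 -4.82) and the 2-cell list in 7 of 7 (Zscan4f -3.04, Zscan4c -2.40, Zscan4a -2.14). Rpl10l and Hormad1 were at means of 0.221 and 0.286 FPKM in D5-LSKCD201+, and these Zscan4 genes at 0.0273, 0.00511 and 0.000708. They passed the filter through D5-LSKCD201- alone, so the germline and 2-cell counts are no test of those lists. Beside these lists, 8 endothelial markers summed to between 1665 and 1697 FPKM in D5-LSKCD201+, between 76.1 and 82.6 in D5-LSKCD201- and between 31.6 and 34.2 in mESC. In the same order, 10 stromal markers summed to between 94.6 and 100.4, between 39.5 and 73.8 and between 8.24 and 9.72. The 8 blood markers summed to between 299.6 and 308 FPKM in D5-LSKCD201+, between 48.5 and 52.4 in D5-LSKCD201- and between 17.9 and 19.4 in mESC. The sums hide members that differ: between D5-LSKCD201+ and D5-LSKCD201- all 8 endothelial markers rose, but of 9 stromal markers tested 2 rose (Lum and Postn) and 1 fell (Pdgfra), and of 8 blood markers 4 rose and 2 fell. Cd34, at 223 FPKM against 19.7, made up most of the blood sum in D5-LSKCD201+, while Gata1 (-1.98 ± 0.17) and Runx1 (-1.19 ± 0.15), transcription factors of blood formation, fell, and Ptprc (-0.21) and Vav1 (-0.00) were not called. The part of these markers in the differences was not tested. Dnmt3b fell (-2.91 ± 0.05), as did Tet1 (-1.03 ± 0.14), while Tet3 rose by 1.09 ± 0.22. Without D5-LSKCD201- replicate 2 Tet3 was at 0.82 and not called. Tet1 was not called when D5-LSKCD201+ replicate 2 or D5-LSKCD201- replicate 1 or 3 was left out (-0.98 to -0.94) or with quantile normalization (-0.91), nor was Pcsk1 with the latter (-0.82). Of the Trh list Furin (1.76 ± 0.36), Qpct (1.46 ± 0.17) and Cpd (1.34 ± 0.20) rose and the prohormone convertase Pcsk1 fell (-1.07 ± 0.09), and Akt1 rose by 1.25 ± 0.16. Both comparisons of D5-LSKCD201+ share these libraries, and each value stands on its own. Quantile normalization moved the median of all genes from 0.05 to -0.10 between D5-LSKCD201- and mESC and from -0.12 to -0.01 between D5-LSKCD201+ and D5-LSKCD201-. The calls between D5-LSKCD201- and mESC then went from 1476 higher and 473 lower to 1104 and 741. Between D5-LSKCD201+ and D5-LSKCD201- the balance turned, from 1475 higher and 1904 lower to 1716 and 1599, and between D5-LSKCD201+ and mESC it turned from 2626 and 2430 to 2499 and 2611.

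In the cocultures the pluripotency network was higher on OP9 in part. Of 30 pluripotency genes 10 were called higher in 3D+OP9 and 0 lower, among them Spp1 (3.70 ± 0.53, adjusted p = 0.00805), Esrrb (3.42 ± 0.21, adjusted p = 0.000623) and Zfp42 (2.67 ± 0.26, adjusted p = 0.00215). Of all genes, 2.11% were called higher and 0.509% lower. Nr5a2, also among the 10, had a gelatin mean of 0.403 FPKM and passed the filter only through 3D+OP9. Esrrb was at 28.3, 24.9 and 46.1 FPKM in 3D+OP9 and at 2.04, 2.01 and 2.19 on gelatin. Nanog, at 76.7, 72.9 and 70.3 FPKM against 171, 171 and 106, had a log2 difference of -0.98 ± 0.18 (limma adjusted p = 0.0197), and Pou5f1 one of -0.71 ± 0.16 (limma adjusted p = 0.0446), both under the fold threshold. Utf1, whose profile in the sorted cells was close to that of Zfp42, was at 127 FPKM ± 149 against 111 ± 34.6 where Zfp42 was at 40.1 ± 11.7 against 5.50 ± 1.98.

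The other lists were called in few genes there. Of 14 germline genes 2 were called higher (Rpl10l with 1.5 ± 0.27, adjusted p = 0.0201, and Tex19.1 with 1.11 ± 0.22, adjusted p = 0.0251), and of 7 methylation genes Tet2 (1.26 ± 0.19, adjusted p = 0.00967). Without the second gelatin library Spp1 (3.48) and Tet2 (1.27) were not called. Leaving out 1 library ended the call of Rpl10l for 3 of the 6 libraries, the second 3D+OP9, the first gelatin and the third gelatin library, with log2 fold changes of 1.32 to 1.6. It ended that of Tex19.1 for all but the third gelatin library, at 0.93 to 1.2. Limma called 0 of 6 2-cell genes, 0 of 4 genes of the Tcl1 and Akt list and 0 of 7 of the Trh list, with an unadjusted p under 0.05 for 2, 2 and 4 of them.

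**Figure D4:**
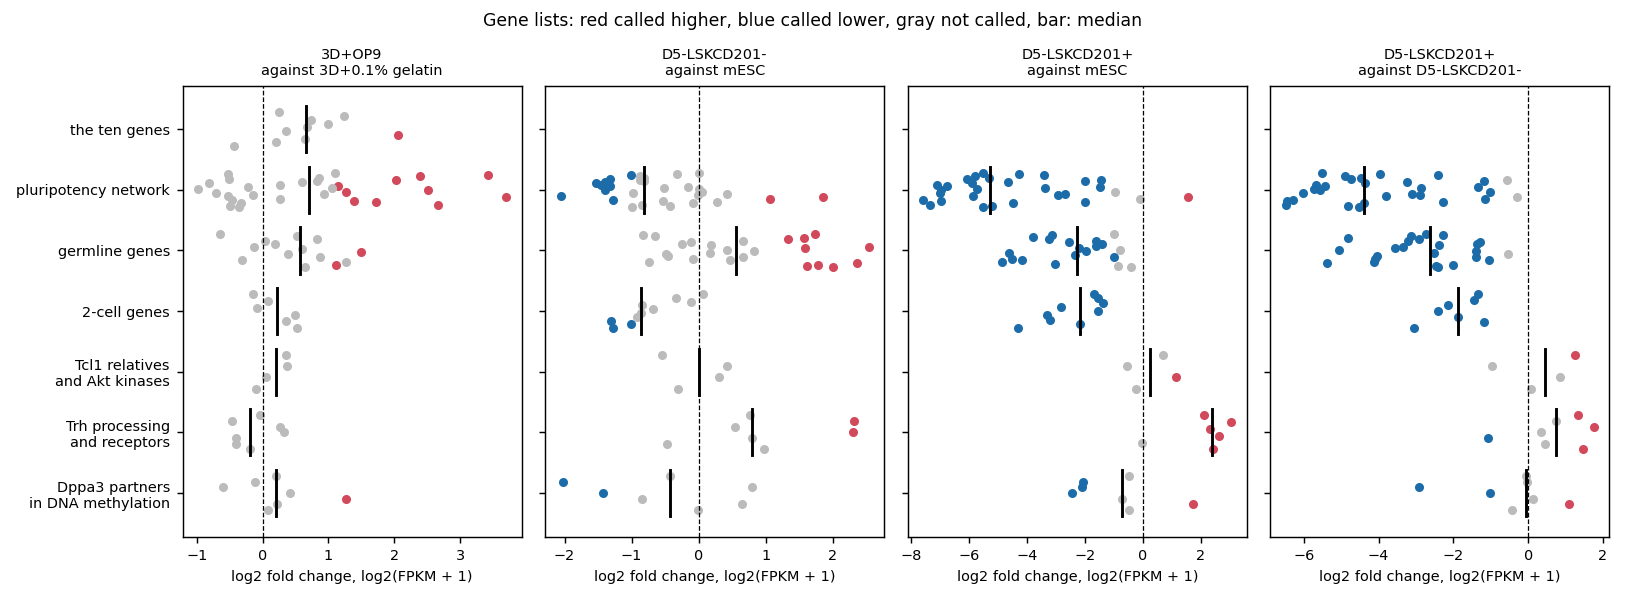
Points are genes, placed by their log2 fold change on the log2(FPKM + 1) scale (horizontal axis) in 4 comparisons and grouped by list, with red and blue for genes called higher and lower, gray for genes not called and a bar at the median; the 10 genes are shown only for the cocultures. Pluripotency, germline and 2-cell genes lie far to the left in both comparisons of D5-LSKCD201+, whereas between D5-LSKCD201- and mESC the germline median is 0.57 and the pluripotency median -0.82. Germline and 2-cell genes low in both groups of a comparison were filtered out.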

How the data were processed

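The submitters' processing notes name HISAT2 2.0.5 (an aligner), StringTie 1.3.3 (an assembler and quantifier) and Cuffdiff 1.3.0, and the builds GRCm38 and mm9, and the coordinates of the sorted-cell table are those of GRCm38. The authors deposited FPKM per gene and library in 2 tables that were normalized separately, so no test crossed them. The coculture table lists 22899 genes, 3578 of them without a value in any library. No read totals are given, so depth is unknown.

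FPKM were taken to log2(FPKM + 1). Genes averaging 0.5 FPKM or more over the 6 libraries compared entered limma 3.58.1 (trend, two-sided) in R 4.3.3, with p adjusted by Benjamini-Hochberg over all genes tested. Genes were called at an adjusted p under 0.05 and a log2 fold change of at least 1 in size. With 3 replicates per group, fits were pairwise, and the code was tested on simulated data. Transcript copies were searched with blastn in GENCODE M21. Figures used Python 3.11.15 and matplotlib 3.10.9.

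The 10 genes and the lists (pluripotency network, germline, 2-cell, Tcl1 and Akt, Trh, Dppa3 partners, cell type markers) were chosen with earlier results of these data known. Named were all 10 genes, up to 3 called genes of largest change per list and direction, the 2 most similar profiles per gene, and markers; Nanog, Pou5f1, Dazl, Tex19.1, Ddx4, Uhrf1, Dnmt3b, Akt1, Akt2, Klf2, Klf5, Lin28a and Zscan4d levels were also given after their values were seen. Alternatives were a pseudocount of 0.1, other filters, quantile normalization, limma with no variance trend, a block for replicate number, the adjusted p alone, a fit over all 5 sorted groups and leaving out each library. Averaging the closest pair of replicates was added after seeing the data.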

Additional observations from a re-analysis of the deposited data

How the results depend on the processing

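Of the results of the comparisons, 339 values stayed within 1.5 times the main count, while 21 were stronger and 16 weaker. With the adjusted p alone, calls between cocultures were 597 higher and 294 lower, 4374 and 3044 between D5-LSKCD201- and mESC, 5418 and 6078 between D5-LSKCD201+ and mESC, and 3930 and 5419 between the D5 fractions, with 2 pluripotency genes lower in 3D+OP9, 19 lower in D5-LSKCD201-, and 14 germline genes higher and 4 lower in D5-LSKCD201-. With a pseudocount of 0.1, calls were 413 higher and 118 lower between cocultures and 790 lower between D5-LSKCD201- and mESC. With quantile normalization, 741 were lower and 1 pluripotency gene higher in D5-LSKCD201-. Leaving out 1 library at a time gave 172 (without gelatin replicate 2) to 317 genes higher and 37 (without gelatin replicate 2) to 127 (without 3D+OP9 replicate 3) lower in 3D+OP9, and 43 lower without 3D+OP9 replicate 2, 0 to 1 of the 10 genes lower, 0 to 1 pluripotency genes lower, 0 to 1 germline genes higher and 0 to 1 lower, and 1 to 2 pluripotency genes higher in D5-LSKCD201-. Averaging the closest pair gave 1 germline gene higher in 3D+OP9 and 1 pluripotency gene higher in D5-LSKCD201-. The sign reversed for Dppa2 (-0.25 without 3D+OP9 replicate 3, -0.05 without gelatin replicate 1, up to 0.54 without others), Utf1 (0.05 and 0.02 without 3D+OP9 replicate 1 and 2, 0.04 with the closest pair averaged, -1.39 without replicate 3) and Tcf15 (-0.07 without 3D+OP9 replicate 3, up to 0.56 without others), and of these the only call was that of Utf1 at -1.39. The cause was not tested. The level of Dppa3 in D5-LSKCD201- ran from 917% to 1033% of mESC, and for the other 9 genes it moved by less than 1 SD.

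Same-numbered replicates correlated in their deviations at 0.182, 0.072 and 0.291 in the cocultures and at -0.153 to 0.102 elsewhere. By the labels they share only a number, and whether the cocultures share more was not settled. With the number as a block, calls were 295 higher and 84 lower between cocultures, with Tcl1 called and none of the other 9 genes, and 2 of 3 3D+OP9 libraries correlated best with their own number. Depth is unknown, so levels under 1 FPKM limit what the 10 genes show in fetal liver, marrow and D5-LSKCD201+.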
